A study of Mus musculus with 6 samples.

Results

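The genes described here encode the enzymes of glycolysis, the carriers that bring glucose into a cell and lactate across its membrane, and close side branches. The list holds 30 mouse genes, and all 30 symbols were found among the 31053 genes of each of the 6 count matrices. One symbol, Aldoa, stands on a second row with another identifier (ENSMUSG00000114515), which held 112 UMIs in all cells and was left out of the counts below.

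The study compared melanomas of mice that ran with those of mice that did not. Exercise libraries 5, 6 and 8 come from tumours of mice that had run daily for 14 days, 45 minutes each time, at a speed of 12 m/min, and sedentary libraries 1, 2 and 3 from mice that did not run. Both groups are male C57Bl/6 mice aged 6-8 weeks with a subcutaneous tumour grown from 600000 YUMMER1.7 cells, a cultured mouse melanoma line, so all tumours share 1 line in an immune-competent host. Whole tumours were dissociated and sequenced as single cells with 10x Genomics 3' version 3 chemistry, with no sort. The labels do not say how many mice gave each library, so the p-values between groups measure the spread between these 3 and 3 libraries.

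Glycolysis splits glucose into pyruvate and yields ATP without oxygen, and lactate dehydrogenase turns pyruvate into lactate so that the pathway can go on. Most steps have several isozymes, encoded by separate genes and used in different tissues. Low oxygen stabilises the transcription factor HIF-1, which is known to switch on many of these genes, and tumour cells and activated leukocytes both are known for a high glycolytic flux and for lactate export.

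The values are counts of unique molecular identifiers (UMIs), each standing for 1 captured RNA molecule, summed over the cells of a class in a library and given as CPM, each count divided by all UMIs of that class and library and multiplied by 1000000. Because 1 molecule gives 1 UMI whatever the length of the transcript, shares of UMIs within a gene family are given with no correction for length, though capture can differ between genes. Classes were gated cell by cell on counted marker genes, with no clustering, and cells that passed the gates of 2 kinds were left out. Of 58351 barcodes, 52390 were kept, with a median of 5967 to 12514 UMIs per cell and library. The main non-immune class, chosen by genes such as Cspg4, Cdh2, Nes, Pdgfra and Sox9, held 26808 cells, or 51.17% of those kept. The melanocyte genes Mlana and Sox10 were near 0 CPM in it, so it is called by its gate and not as a melanocyte-like type. Macrophages and monocytes, called macrophages here, held 7337 cells, T cells 3297, NK cells 731 and neutrophils 671. Neutrophils were few in exercise library 6, with 25 cells, and had a median of 844 to 1173 UMIs per cell and library. Dendritic cells numbered 352, with 19 in sedentary library 2, and were left out of edgeR's tests. Pairs of libraries shared 17 to 30 barcodes of kept cells.

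RNA set free in the suspension gives UMIs to cells that do not express a gene. Summed over Col3a1, Col5a2, Sparc, Fn1 and Timp3, which were high in the main non-immune class at a mean of 4016 CPM, the level was 477 CPM in macrophages, 396 CPM in T cells, 604 CPM in NK cells and 1086 CPM in neutrophils. Whether leukocytes express any of these genes themselves was not tested, so the sums are not a measure of free RNA alone. The part of free RNA in the members' values was not tested.

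Macrophages and main non-immune cells differed in the levels of several isozymes and carriers. The lactate exporter Slc16a3 (MCT4), the leukocyte hexokinase Hk3 and the aldolase Aldoc were high in macrophages and close to 0 in main non-immune cells, whereas the lactate carrier Slc16a1 (MCT1) was clearly lower in macrophages. Across all genes edgeR's quasi-likelihood test with the library as a block called 80% of 13557 genes at an adjusted p under 0.05, 38.1% higher and 41.9% lower. Among the 30 members 19 were higher, 7 lower and 4 not called, a share near that background, so the sizes and not the count carry the description. The median log2 fold change was 0.40 over members and -0.06 over all genes.

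Of the carriers, Slc16a3, which exports lactate from glycolytic cells, ranged over 65.4 to 156 CPM (median 90) in macrophages and 0.120 to 0.527 CPM (median 0.191) in main non-immune cells (log2 fold change 8.67, SE 0.17, adjusted p = 9.16e-14). The ranges of the 6 libraries did not overlap. Slc16a1, a carrier of lactate and pyruvate in either direction, ranged over 4.27 to 9.36 CPM (median 6.02) in macrophages and 25.7 to 39 CPM (median 31.6) in main non-immune cells (log2 fold change -2.15, SE 0.17, adjusted p = 9.02e-08), again with no overlap. The glucose carrier Slc2a3 (GLUT3) ranged over 1.49 to 3.04 CPM (median 2.21) in macrophages and 0.0914 to 0.196 CPM (median 0.117) in main non-immune cells (log2 fold change 4.19, SE 0.27, adjusted p = 1.45e-08). Slc2a1 (GLUT1), the common glucose carrier, was higher by a small amount (log2 fold change 0.36, SE 0.10, adjusted p = 0.00502).

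Hexokinases trap glucose in the cell by adding a phosphate. Hk3, known from myeloid cells, ranged over 35.1 to 66 CPM (median 44.5) in macrophages and 0.0583 to 0.211 CPM (median 0.105) in main non-immune cells (log2 fold change 8.69, SE 0.13, adjusted p = 7e-15). Hk2, the inducible form, ranged over 81.5 to 261 CPM (median 159) in macrophages and 15.5 to 59 CPM (median 43) in main non-immune cells (log2 fold change 2.08, SE 0.08, adjusted p = 1.09e-10). Hk1, the widely expressed form, was lower in macrophages (log2 fold change -0.78, SE 0.09, adjusted p = 3.21e-06). Thus the 3 hexokinases did not move together: 2 were higher and 1 lower.

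PFKFB enzymes make and break the sugar phosphate that activates phosphofructokinase. Pfkfb3, the form with the highest kinase activity, ranged over 35.8 to 113 CPM (median 62.7) in macrophages and 1.67 to 5.73 CPM (median 4.59) in main non-immune cells (log2 fold change 4.12, SE 0.25, adjusted p = 7.5e-09). Pfkfb4 ranged over 25.5 to 34.1 CPM (median 31.1) in macrophages and 4.23 to 6.61 CPM (median 5.46) in main non-immune cells (log2 fold change 2.54, SE 0.11, adjusted p = 2.19e-10). Both were above main non-immune cells in every library. Aldoc, an aldolase best known from brain, ranged over 20.6 to 33.9 CPM (median 22.7) in macrophages and 0.139 to 0.275 CPM (median 0.168) in main non-immune cells (log2 fold change 7.02, SE 0.19, adjusted p = 2.77e-12). The other called members had log2 fold changes from -2.33 for the neuronal enolase Eno2 to 1.19 for the platelet-type phosphofructokinase Pfkp and 1.18 for the lactate dehydrogenase subunit Ldhb. Tpi1, Eno3, Pfkfb1 and Pfkfb2 were not called.

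In neutrophils the lactate carrier Slc16a3 and the glucose carriers Slc2a3 and Slc2a1 were higher than in main non-immune cells. Slc16a3 and Slc2a3 were the members with the highest fold, and their median levels were also the highest of the tested classes. The test called 51.8% of 12550 genes, 13.6% higher and 38.1% lower, and 8 members were higher, 11 lower and 10 not called, while Aldoc was not tested. The median log2 fold change over all genes was -1.06 (members -0.58). It was -0.79 (members -0.28) in edgeR with the size factors of DESeq2, where 34.5% of the called genes were higher, against 26.4% with TMM scaling. With DESeq2 itself, which differs in both scaling and test, it was -0.39 (members -0.06), and 39.5% of the called genes were higher.

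Slc16a3 ranged over 85 to 663 CPM (median 547) in neutrophils and 0.120 to 0.527 CPM (median 0.191) in main non-immune cells (log2 fold change 10.69, SE 0.28), and it was called higher. Slc2a3 ranged over 85 to 613 CPM (median 270.2) in neutrophils and 0.0914 to 0.196 CPM (median 0.117) in main non-immune cells (log2 fold change 10.93, SE 0.31, adjusted p = 7.16e-276). Slc2a1 ranged over 89.3 to 353 CPM (median 218) in neutrophils and 29.8 to 122 CPM (median 88.9) in main non-immune cells (log2 fold change 1.15, SE 0.21, adjusted p = 2.86e-07). For the first pair no library of either class reached the range seen in the other class, whereas the Slc2a1 ranges overlapped.

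Hk3 ranged over 26.9 to 127 CPM (median 57) in neutrophils and 0.0583 to 0.211 CPM (median 0.105) in main non-immune cells (log2 fold change 8.33, SE 0.46, adjusted p = 1.77e-69). Hk2 ranged over 94 to 297 CPM (median 183) in neutrophils and 15.5 to 59 CPM (median 43) in main non-immune cells (log2 fold change 1.73, SE 0.23, adjusted p = 3.81e-13). Among the regulators, Pfkfb3 ranged over 42.5 to 142 CPM (median 108) in neutrophils and 1.67 to 5.73 CPM (median 4.59) in main non-immune cells (log2 fold change 4.70, SE 0.29, adjusted p = 3.34e-56). These 3 lay above the main non-immune range in every library. Pfkfb4 ranged over 35.3 to 127 CPM (median 71.9) in neutrophils and 4.23 to 6.61 CPM (median 5.46) in main non-immune cells (log2 fold change 3.40, SE 0.33, adjusted p = 4.18e-23), and Pfkp over 127 to 251 CPM (median 223) in neutrophils and 43.2 to 89.5 CPM (median 69.5) in main non-immune cells (log2 fold change 1.45, SE 0.21, adjusted p = 2.94e-11).

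The enzymes of the lower pathway were below main non-immune cells in neutrophils, with log2 fold changes of -0.95 for Tpi1, -0.87 for Pgam1, -0.84 for Pgk1, -0.66 for Gapdh, -0.62 for Eno1, -0.61 for Ldha and -0.58 for Pkm. Each of these is above the median of all genes, and Eno1, Ldha and Pkm were not called with DESeq2. Without exercise library 5 the test called 4238 genes and 11 members in place of 6496 genes and 19 members, and Pgk1, Pgam1, Gapdh, Eno1, Ldha and Pkm lost their calls (adjusted p = 0.124 to 0.383). Without exercise library 6 Pgk1, Gapdh, Eno1, Ldha and Pkm lost theirs (adjusted p = 0.0925 to 0.488). Slc16a1 (6 UMIs), Pfkm (1 UMI), Pgm2 (13 UMIs) and Bpgm (4 UMIs) were also called lower, from these few UMIs. Bpgm lost its call without any 1 of the 6 libraries (adjusted p = 0.0514 to 0.231), and Pgm2 lost it without exercise library 5 (log2 fold change -0.57, adjusted p = 0.367). Pfkfb1 and Pfkfb2 had 0 of 751803 UMIs, which allows up to 3.99 CPM.

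T cells had more of the glucose carrier Slc2a3 and of the muscle enolase Eno3 than main non-immune cells, and less of the glucose carrier Slc2a1. The test called 74.4% of 13437 genes, 34.7% higher and 39.6% lower, and of the members 12 were higher, 12 lower and 6 not called. The median log2 fold change was close to 0 over members and -0.07 over all genes.

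Slc2a3, a carrier with high affinity for glucose, ranged over 52.6 to 88.7 CPM (median 55.4) in T cells and 0.0914 to 0.196 CPM (median 0.117) in main non-immune cells (log2 fold change 8.82, SE 0.17, adjusted p = 5.81e-22). Slc16a3 ranged over 20.1 to 39.3 CPM (median 28) in T cells and 0.120 to 0.527 CPM (median 0.191) in main non-immune cells (log2 fold change 6.75, SE 0.27, adjusted p = 6.83e-16). Pfkp ranged over 172 to 220.1 CPM (median 192) in T cells and 43.2 to 89.5 CPM (median 69.5) in main non-immune cells (log2 fold change 1.48, SE 0.10, adjusted p = 7.31e-12). In all 3 the lowest T cell library was above the highest main non-immune library.

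Aldoc ranged over 4.94 to 9.79 CPM (median 7.38) in T cells and 0.139 to 0.275 CPM (median 0.168) in main non-immune cells (log2 fold change 5.18, SE 0.30, adjusted p = 4.74e-13). Eno3, known from muscle, ranged over 29.2 to 103 CPM (median 55) in T cells and 7.27 to 12.4 CPM (median 8.24) in main non-immune cells (log2 fold change 2.78, SE 0.19, adjusted p = 1.15e-11). Pfkfb3 ranged over 12.8 to 25.9 CPM (median 17.4) in T cells and 1.67 to 5.73 CPM (median 4.59) in main non-immune cells (log2 fold change 2.23, SE 0.22, adjusted p = 3.97e-09). The groups did not overlap in any of them.

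Pgam1, the phosphoglycerate mutase, ranged over 221 to 279.6 CPM (median 249) in T cells and 519.9 to 816 CPM (median 682) in main non-immune cells (log2 fold change -1.50, SE 0.07, adjusted p = 8.32e-15). Pkm, the pyruvate kinase that closes the pathway, ranged over 595 to 738 CPM (median 665) in T cells and 1062 to 1426 CPM (median 1202) in main non-immune cells (log2 fold change -0.97, SE 0.07, adjusted p = 8.38e-12). Both were lower in T cells in every library. The other called members ran from -1.68 and -1.77 for Eno2 and Pfkfb4 to 1.31 and 3.65 for Pfkfb1 and Hk3, each of these 4 from 9 to 23 UMIs, and they included lower Slc2a1 (-1.13), Hk2 (-0.92) and Slc16a1 (-1.06). Eno1, Pgk1, Pgm1, Bpgm, Ldhb and Pfkfb2 were not called.

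In NK cells most tested members were lower than in main non-immune cells. Of the 28 tested, 4 were higher, 16 lower and 8 not called, where the test called 54.8% of 12806 genes, 22.3% higher and 32.5% lower. The median log2 fold change was -0.71 over members and -0.21 over all genes. Hk3 and Aldoc were not tested.

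Slc2a3 ranged over 11.5 to 45.9 CPM (median 21.5) in NK cells and 0.0914 to 0.196 CPM (median 0.117) in main non-immune cells (log2 fold change 7.46, SE 0.41, adjusted p = 1.51e-29). Slc16a3 ranged over 0 to 21.6 CPM (median 8.85) in NK cells and 0.120 to 0.527 CPM (median 0.191) in main non-immune cells (log2 fold change 5.32, SE 0.53, adjusted p = 5.45e-15), with no UMI in sedentary library 1. Pfkp ranged over 125 to 176 CPM (median 165) in NK cells and 43.2 to 89.5 CPM (median 69.5) in main non-immune cells (log2 fold change 1.16, SE 0.12, adjusted p = 1.03e-13). Together with Pfkfb3 (1.43), which was not called without exercise library 6 (adjusted p = 0.0784), these were the members called higher. Slc16a3 and Pfkfb3 rest on 22 and 24 UMIs. The remaining members called lower ran from -3.20 for Ldhb, from 1 UMI, to -0.35 for Eno1, and they included Hk2 (-1.93) and Slc16a1 (-1.39).

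Below the main non-immune class were the enzymes of the lower pathway. Pgam1 ranged over 167 to 265 CPM (median 211) in NK cells and 519.9 to 816 CPM (median 682) in main non-immune cells (log2 fold change -1.68, SE 0.09, adjusted p = 3.89e-29). Pkm ranged over 336 to 597 CPM (median 445) in NK cells and 1062 to 1426 CPM (median 1202) in main non-immune cells (log2 fold change -1.53, SE 0.09, adjusted p = 4.23e-29). Tpi1, the triose phosphate isomerase, ranged over 203 to 356 CPM (median 269) in NK cells and 450.4 to 611 CPM (median 544) in main non-immune cells (log2 fold change -1.08, SE 0.09, adjusted p = 2.84e-18). No NK library reached the main non-immune range of these 3. Gapdh, the dehydrogenase that makes NADH in the pathway, ranged over 695 to 1250 CPM (median 880.1) in NK cells and 1191 to 1763 CPM (median 1563) in main non-immune cells (log2 fold change -0.80, SE 0.08, adjusted p = 1.78e-15). Pgk1, which makes the first ATP, ranged over 179 to 332 CPM (median 251) in NK cells and 271 to 544 CPM (median 386) in main non-immune cells (log2 fold change -0.73, SE 0.10, adjusted p = 5.81e-10). Here the ranges met: the highest NK library was above the lowest main non-immune library in both.

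**Figure D1:**
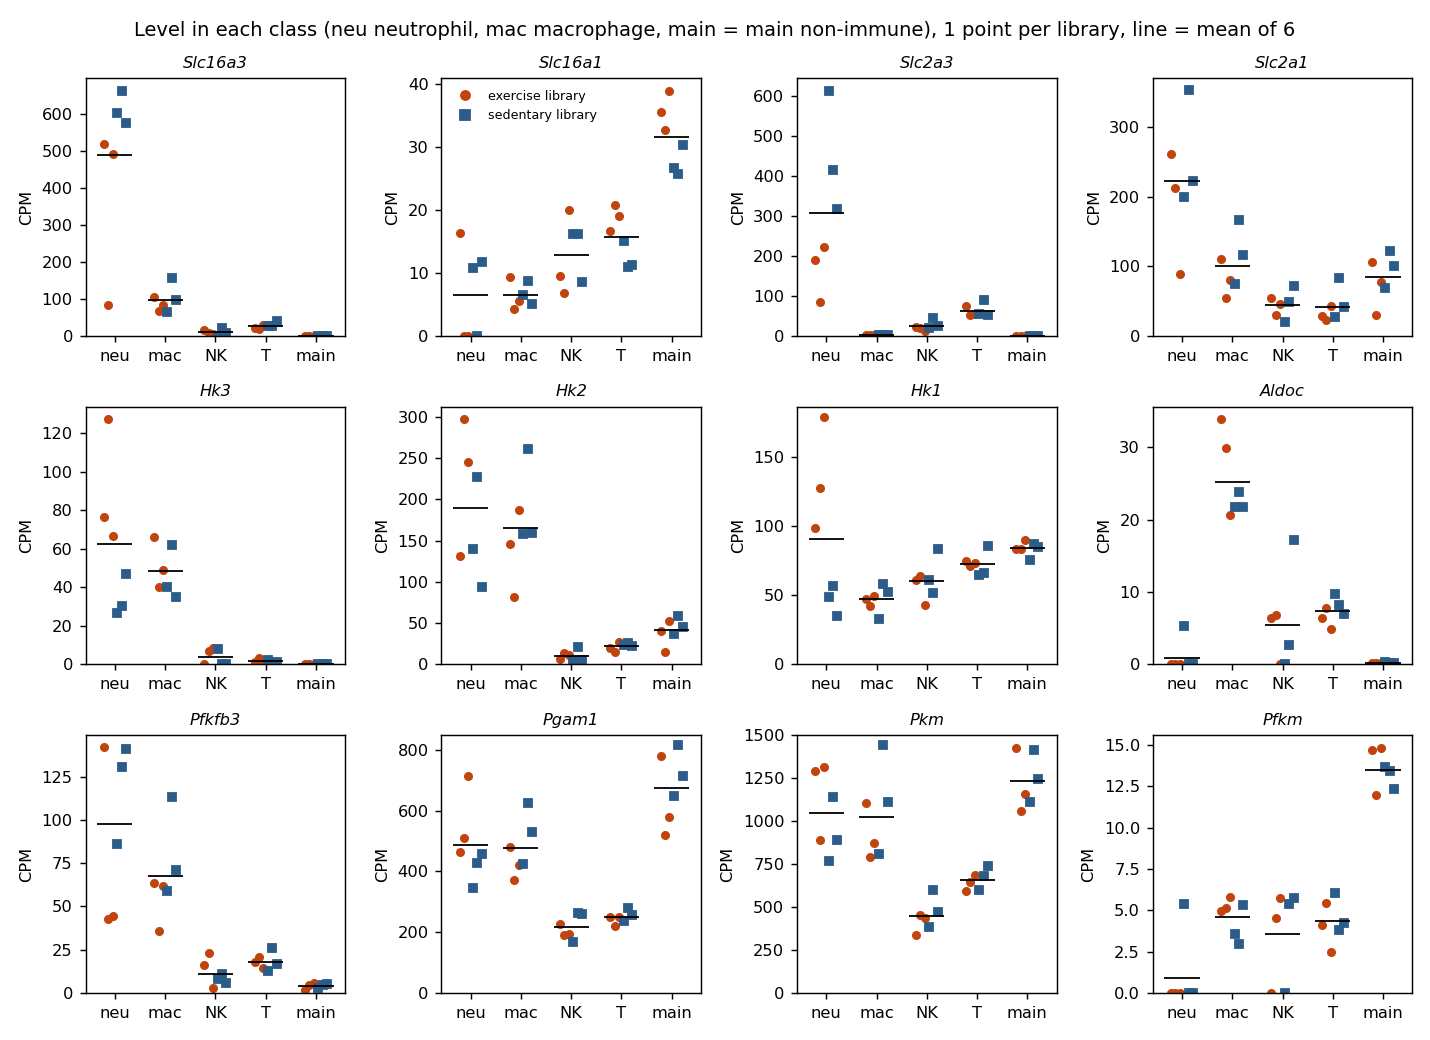
Level of 12 members in CPM (y axes, linear from 0) in neutrophils, macrophages, NK cells, T cells and main non-immune cells (x axes). Each point is a library, circles for exercise and squares for sedentary, and the line is the mean of 6. Slc16a3, Hk3 and Pfkfb3 lie high in neutrophils and macrophages, and Slc2a3 in neutrophils and T cells. All of these lie near 0 in main non-immune cells, whereas Slc16a1 and Pfkm have their highest mean there.

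Shares within a family describe the choice of isozyme apart from the level of the family. A share was compared where every library had at least 50 UMIs of the family in both classes, which left 36 shares: 18 in macrophages, 12 in T cells, 5 in NK cells and 1 in dendritic cells. An exact two-sided sign-flip permutation test over the 6 libraries cannot go below p = 0.03125, and 25 of the 36 shares reached it, because they differed the same way in every library. After Benjamini-Hochberg adjustment over the 36 these had an adjusted p = 0.045 each. The shares of 1 family depend on each other.

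Slc16a3 made up 93.4% ± 1.61 of the Slc16a1 and Slc16a3 UMIs in macrophages, against 0.814% ± 0.459 in main non-immune cells (SD over 6 libraries). The lowest difference in a library was 90.3 percentage points, so the 2 classes used the lactate carriers in nearly opposite shares. Hk2 made up 62.2% ± 7.55 of hexokinase UMIs in macrophages and 32.1% ± 8.56 in main non-immune cells. Hk1 made up 18.7% ± 4.24 in macrophages and 67.8% ± 8.56 in main non-immune cells, and Hk3 made up 19.2% ± 4.66 in macrophages and 0.0991% ± 0.0481 in main non-immune cells.

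Phosphofructokinase commits sugar to glycolysis and has 3 subunit genes. Pfkp made up 63.4% ± 3.46 of the family in macrophages, 78.5% ± 3.33 in T cells and 46.2% ± 6.93 in main non-immune cells, and was above the main non-immune class in every library of both. Pfkm, the muscle subunit, made up 2.07% ± 0.588 in macrophages, 1.80% ± 0.611 in T cells and 9.44% ± 1.67 in main non-immune cells, lower in every library. The liver subunit Pfkl was lower in every library of T cells, at 19.7% ± 3.41 against 44.3% ± 6.30 in main non-immune cells. In macrophages it made up 34.6% ± 3.26, lower in 5 of 6 libraries (exact p = 0.0625).

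Among glucose carriers Slc2a3 made up 62.1% ± 8.50 of Slc2a1 and Slc2a3 UMIs in T cells, 2.35% ± 0.437 in macrophages and 0.185% ± 0.104 in main non-immune cells. Among enolases Eno3 made up 10.7% ± 4.68 in T cells and 1.56% ± 0.297 in main non-immune cells, and Eno1, the ubiquitous form, 89.2% ± 4.68 in T cells and 98% ± 0.323 in main non-immune cells. In macrophages Eno1 and Eno3 did not differ the same way in every library, with differences of 0.203 ± 0.892 percentage points and 0.139 ± 0.925 percentage points (SD, exact p = 0.656 and 0.969). Pfkfb3 made up 65.7% ± 9.93 of PFKFB UMIs in macrophages and 35% ± 8.87 in main non-immune cells, where Pfkfb4 held 49.5% ± 4.69.

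Lactate dehydrogenase UMIs were mostly Ldha in the 5 classes compared, and neutrophils had too few UMIs for a share. Ldhb, the heart-type subunit, made up 6.11% ± 4.33 in dendritic cells, 1.31% ± 0.495 in macrophages, 0.108% ± 0.265 in NK cells and 0.717% ± 0.195 in main non-immune cells. Dendritic and macrophage shares were higher and NK shares lower in every library. The NK share averaged 0.2165% in exercise libraries and 0% in sedentary libraries, so its direction rests on counts at or near 0. In T cells the Ldhb share was 0.649% ± 0.384, and its difference from main non-immune cells was -0.0684 ± 0.364 percentage points (SD, exact p = 0.562). Aldoc was a minor aldolase in the classes with a share, at 3.42% ± 1.18 in macrophages, 1.07% ± 0.338 in T cells and 0.0388% ± 0.0111 in main non-immune cells.

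Phosphoglucomutase links glycolysis to glycogen. The files name ENSMUSG00000025791 Pgm2 and ENSMUSG00000029171 Pgm1, while GENCODE M21 gives these symbols the other way round, so the identifiers decide here and the files' symbols are kept. Pgm2 made up 76.8% ± 4.44 of the pair in macrophages and 74.3% ± 3.97 in main non-immune cells, a difference of 2.53 ± 3.31 percentage points (SD, exact p = 0.219). It was higher in 4 of 6 libraries.

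**Figure D2:**
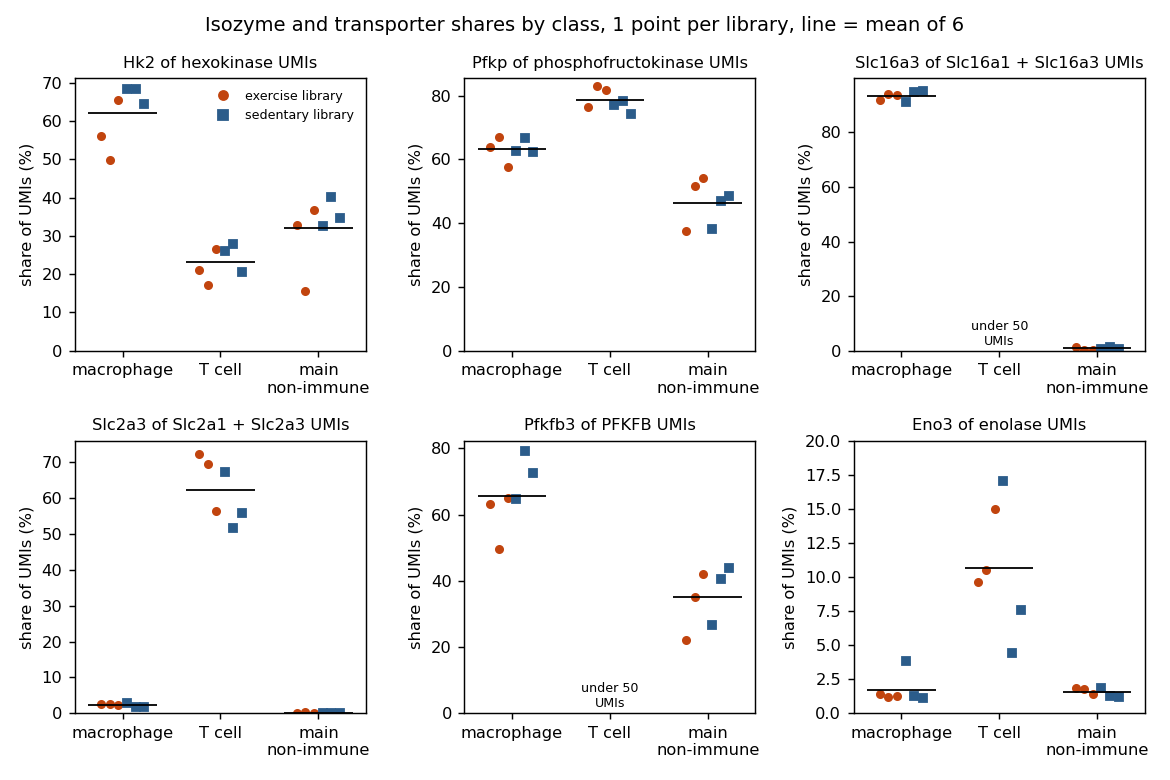
Share of a family's UMIs in percent (y axes, linear from 0) held by 6 members in macrophages, T cells and main non-immune cells (x axes). Each point is a library, circles for exercise and squares for sedentary, and the line is the mean of 6. Slc16a3 holds 93.4% in macrophages and 0.814% in main non-immune cells, and Slc2a3 holds 62.1% in T cells. A class with a library under 50 UMIs of the family is marked so and has no points.

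Genes of neighbouring pathways were called about as often as all genes, so their values are given as a description. Called were 25 of 31 tested in macrophages, 23 of 29 in T cells, 13 of 27 in NK cells and 12 of 28 in neutrophils, where the shares over all genes were 80% in macrophages, 74.4% in T cells, 54.8% in NK cells and 51.8% in neutrophils. In macrophages 6 of 8 genes of the pentose phosphate branch were higher, namely Tkt (1.47), Taldo1 (1.89), Tigar (1.48), Rpia (1.02), Pgd (0.51) and Rpe (0.61) on the log2 scale, and Pgls (-0.58) and G6pdx (-0.42) were lower. Of 6 tested genes of glycogen and gluconeogenesis Pygl (9.42), Gys1 (0.85) and Ugp2 (0.65) were higher and Pck2 (-1.56) and Gbe1 (-0.63) lower. Pygl is the phosphorylase that breaks down glycogen. Of 5 tested further carriers and chaperones Emb (9.02), Slc16a7 (5.87), Slc2a6 (5.04) and Slc2a8 (1.15) were higher and Bsg (-0.97), the main chaperone of lactate carriers, lower. Emb encodes embigin, a second chaperone of these carriers. Of 7 tested genes of pyruvate entry Mpc1 (1.34), Pdk3 (1.63), Pdk1 (0.49) and Mpc2 (0.26) were higher and Pdha1 (-0.67) lower. Hif1a (1.18) was higher and Epas1 (-0.76) lower, and neither of 2 tested further isozymes was called.

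In T cells Rpia (2.11), Tkt (0.71), Taldo1 (0.62), Tigar (1.77) and Rpe (0.74) of the pentose phosphate branch were higher, and G6pdx (-1.95), Pgd (-1.02) and Pgls (-0.43), which run its oxidative steps, lower. Higher were also Pdk3 (0.98), Mpc1 (0.46), Pdhb (0.32), Pygl (4.70), Emb (7.46), Slc2a8 (0.84), Hif1a (1.52), Epas1 (1.02) and Myc (0.42). Lower were Pdha1 (-0.68), Pck2 (-1.84), Gys1 (-1.79), Ugp2 (-0.31), Gbe1 (-0.43) and Bsg (-1.42). Emb was higher and Bsg lower in T cells, as in macrophages.

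In NK cells Pdk2 (1.50), Rpia (1.75), Rpe (0.61), Emb (9.14), Myc (0.98) and Hif1a (0.28) were higher and Pdha1 (-0.56), G6pdx (-1.68), Pgls (-0.69), Pgd (-0.98), Pck2 (-1.87), G6pc3 (-0.85) and Bsg (-1.70) lower. In neutrophils Taldo1 (2.27), Pygl (10.84), Emb (8.55) and Hif1a (1.31) were higher and Pdha1 (-2.0), Mpc2 (-0.69), Pgls (-1.94), G6pdx (-1.06), Pck2 (-1.67), G6pc3 (-1.83) and Bsg (-1.78) lower. Slc2a8 was also called lower there, with 0 UMIs in neutrophils, so no fold is given.

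Cells of the main non-immune class differ in their signs of low oxygen. A score was formed from the UMIs of 15 HIF target genes, none of them a member, among them Car9, Adm, Ndrg1 and Bnip3. The 10% of cells with the highest score in each library, called the highest 10%, were set against its other cells, over cells with at least 2000 UMIs. In the highest 10%, 17 of 26 tested members were higher, 2 lower and 7 not called, and 4 were not tested. The test called 50.7% of 12828 genes, 26.4% higher and 24.3% lower. The median log2 fold change was 0.97 over members and 0.01 over all genes. The highest 10% is a range cut from a score and not a cell type, and 84 to 223 cells of a library lay within 10% of the cut. The cut itself was lowest in exercise library 6, at 1325 CPM of score genes, against 2230 to 4214 CPM in the other libraries. Median UMIs per cell were 14495 to 23769 in the highest 10% and 15792 to 26280 in the other cells.

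The 8 members with the smallest p span the whole pathway. Hk2 ranged over 38.5 to 205 CPM (median 146) in the highest 10% and 13.3 to 44.3 CPM (median 33.6) in the other cells (log2 fold change 2.28, SE 0.12, adjusted p = 3.37e-07). Pfkl ranged over 112 to 184 CPM (median 157) in the highest 10% and 37.4 to 70.2 CPM (median 57.2) in the other cells (log2 fold change 1.64, SE 0.06, adjusted p = 1.63e-08). Aldoa, the main aldolase, ranged over 725 to 1292 CPM (median 1158) in the highest 10% and 317 to 585 CPM (median 459) in the other cells (log2 fold change 1.44, SE 0.07, adjusted p = 1.4e-07). Each was higher in the highest 10% of all 6 libraries, and the ranges of Pfkl and Aldoa did not overlap.

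Further down, Pgk1 ranged over 669 to 1359.6 CPM (median 1019) in the highest 10% and 233 to 473 CPM (median 329.9) in the other cells (log2 fold change 1.78, SE 0.07, adjusted p = 4.16e-08). Pgam1 ranged over 983 to 1511 CPM (median 1425) in the highest 10% and 475 to 748 CPM (median 607) in the other cells (log2 fold change 1.32, SE 0.07, adjusted p = 1.65e-07). Eno1 ranged over 774 to 1236 CPM (median 1123) in the highest 10% and 373 to 646 CPM (median 496) in the other cells (log2 fold change 1.26, SE 0.06, adjusted p = 1.35e-07). The ranges did not overlap in these 3 genes. Ldha, which makes lactate, ranged over 934 to 1469.6 CPM (median 1273) in the highest 10% and 447 to 699 CPM (median 552) in the other cells (log2 fold change 1.32, SE 0.06, adjusted p = 7.41e-08). Pgm2 ranged over 57.3 to 106 CPM (median 99.7) in the highest 10% and 20.2 to 41.1 CPM (median 31.6) in the other cells (log2 fold change 1.73, SE 0.08, adjusted p = 6.53e-08). Both were higher in 6 of 6 libraries, with no overlap.

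The largest change of a member was that of Slc2a1, named here after its values were seen, at 82.5 to 625 CPM (median 472) in the highest 10% and 24.7 to 73.2 CPM (median 52.8) in the other cells (log2 fold change 3.15, SE 0.22, adjusted p = 2.28e-06). The other members called higher were Gpi1 (1.88), Pfkp (1.58), Gapdh (1.29), Tpi1 (1.01), Eno2 (0.93), Pkm (0.82), Hk1 (0.80) and Pfkfb4 (0.31) on the log2 scale. The 2 called lower were Eno3 (log2 fold change -0.62, SE 0.18, adjusted p = 0.0152) and the lactate carrier Slc16a1 (log2 fold change -0.25, SE 0.09, adjusted p = 0.0289), and Slc16a1 was lower in 6 of 6 libraries. Isozymes of 1 step thus did not move together. Pfkl and Pfkp rose, whereas Pfkm had 13.4 ± 1.82 CPM in the highest 10% and 13.5 ± 1.27 CPM in the other cells. Ldha rose, whereas Ldhb had 4.31 ± 1.29 CPM in the highest 10% and 4.34 ± 0.707 CPM in the other cells. Not called besides these were Bpgm, Pfkfb1, Pfkfb2, Pfkfb3 and Pgm1, and Hk3, Aldoc, Slc16a3 and Slc2a3 were too low to be tested. The calls of the small changes were lost without some of the libraries. Slc16a1 was not called without sedentary library 1, sedentary library 2 or exercise library 8 (adjusted p = 0.054, 0.0682 and 0.101). Pfkfb4 was not called without sedentary library 2, sedentary library 3 or exercise library 8 (adjusted p = 0.0636, 0.0701 and 0.105), and Eno3 not without exercise library 5 (adjusted p = 0.0544).

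Macrophages with the highest 10% of the same score were described alongside, with no test. Slc2a1 averaged 342 ± 109 CPM in the highest 10% and 79.3 ± 35.8 CPM in the other cells (SD, n = 6 libraries). Hk2 averaged 436 ± 127 CPM in the highest 10% and 143 ± 56 CPM in the other cells, and Ldha 1397 ± 234 CPM in the highest 10% and 689 ± 131 CPM in the other cells. These were higher in 6 of 6 libraries, as in the main non-immune class. Slc16a3 averaged 193 ± 26.2 CPM in the highest 10% and 88.4 ± 34.6 CPM in the other cells, again higher in 6 of 6.

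The 2 PFKFB genes went different ways in macrophages. Pfkfb3 averaged 222 ± 76.1 CPM in the highest 10% and 54.7 ± 22.9 CPM in the other cells, higher in 6 of 6 libraries. Pfkfb4 averaged 21.1 ± 4.62 CPM in the highest 10% and 31.9 ± 3.57 CPM in the other cells, lower in 6 of 6. In main non-immune cells Pfkfb3 averaged 3.39 ± 1.37 CPM in the highest 10% and 4.17 ± 1.61 CPM in the other cells, higher in 1 of 6 libraries, and Pfkfb4 6.1 ± 1.58 CPM in the highest 10% and 5.47 ± 0.774 CPM in the other cells, higher in 4 of 6. The difference between the classes was not tested.

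**Figure D3:**
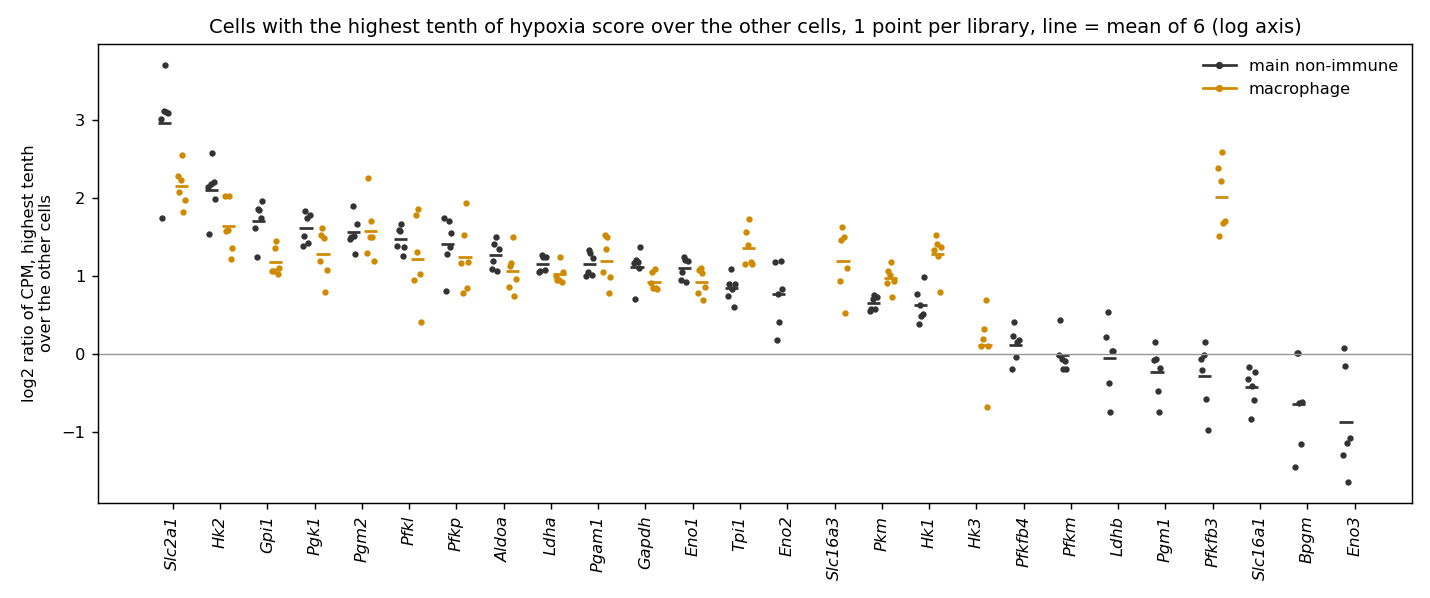
Log2 ratio of CPM in cells of the highest 10% of hypoxia score over the other cells (y axis, log scale) for each member with at least 100 UMIs in these cells (x axis). Points are the 6 libraries, lines their mean, dark for main non-immune cells and yellow for macrophages. Slc2a1 and Hk2 lead in main non-immune cells, and Pfkfb3 is high in macrophages and near 0 in main non-immune cells.

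Outside the list 17 of 28 tested related genes were called, where 50.7% of all genes were. Pdk1 (2.26) and Pdk3 (0.64) of 7 tested genes of pyruvate entry were higher and Pdk2 (-0.75) lower. Pdk1 encodes a kinase that shuts off pyruvate dehydrogenase. Of 5 tested glycogen genes Gys1 (2.44), Gbe1 (1.72) and Ugp2 (0.59), which build glycogen, were higher and Pck2 (-0.50) lower. The pentose phosphate branch was split, with Tkt (0.35) and Pgd (0.38) higher and G6pdx (-0.34), Pgls (-0.15) and Tigar (-0.61) lower. Higher were also Bsg (1.09), Slc2a8 (0.43), Hif1a (0.75) and Myc (0.85). Eno1b (1.23), a near copy of Eno1 whose reads the counting could split, was higher too and is uncertain.

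HIF-1 is known to bind a core of the letters ACGTG or GCGTG, read on either strand, in the setting of further bases. The RefSeq promoter windows of the members (GRCm38.p6, 250 bases before to 50 after a start) were searched for ACGTG and its reverse complement CACGT, where CACGTG counts as 2 overlapping matches. Of 32851 windows of 300 bases, 19.6% held a match. GCGTG and its reverse complement CACGC were counted beside them and are not in capitals: 32.4% of windows held these, and 43.8% held either form. A window was found for 29 members, and 14 held a match in the window nearest to the gene's start in GENCODE M21 (4329 bases away for Ldha, 587 for Slc16a3 and at most 276 for the others printed here). Slc2a3 has none in the table. In the nearest window either form was found in 22 of the 29. In the nearest window neither form was found for Aldoa, Eno2, Gpi1, Hk1, Pkm and Tpi1, which were all called higher with the hypoxia score. Bpgm, which was not called, also held neither there. Windows of Aldoa, Hk1 and Pkm farther from that start held ACGTG or CACGT and are not in these counts. None of these windows is printed. The windows below are those of 4 members that rose with the hypoxia score and hold ACGTG or CACGT, of Pfkl, which rose and holds only the GCGTG form, and of both lactate carriers. Capitals mark the matches, and each sequence reads 5′ to 3′ on the strand of the gene. Slc2a1 lies at chr4:119108495-119108794 (+), Hk2 at chr6:82774405-82774704 (-), Pgk1 at chrX:106186850-106187149 (+), Ldha at chr7:46845554-46845853 (+), Pfkl at chr10:78009758-78010057 (-), Slc16a1 at chr3:104638414-104638713 (+) and Slc16a3 at chr11:120948817-120949116 (+).
Slc2a1: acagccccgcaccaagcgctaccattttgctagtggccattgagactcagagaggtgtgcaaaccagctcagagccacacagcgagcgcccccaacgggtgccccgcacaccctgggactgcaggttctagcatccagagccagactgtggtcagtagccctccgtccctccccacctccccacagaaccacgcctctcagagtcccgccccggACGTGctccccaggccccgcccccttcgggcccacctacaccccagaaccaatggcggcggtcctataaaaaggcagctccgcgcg
Hk2: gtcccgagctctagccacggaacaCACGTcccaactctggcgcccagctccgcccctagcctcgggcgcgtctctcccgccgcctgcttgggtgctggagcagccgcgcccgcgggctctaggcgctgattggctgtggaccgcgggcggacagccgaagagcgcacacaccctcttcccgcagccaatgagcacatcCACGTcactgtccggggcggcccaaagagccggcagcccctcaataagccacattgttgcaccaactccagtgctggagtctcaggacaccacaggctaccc
Pgk1: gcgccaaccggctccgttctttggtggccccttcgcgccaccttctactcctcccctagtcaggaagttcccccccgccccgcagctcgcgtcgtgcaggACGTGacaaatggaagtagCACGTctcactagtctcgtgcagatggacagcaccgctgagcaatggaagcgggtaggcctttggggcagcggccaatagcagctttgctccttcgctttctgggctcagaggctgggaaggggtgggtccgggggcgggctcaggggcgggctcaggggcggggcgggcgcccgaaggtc
Ldha: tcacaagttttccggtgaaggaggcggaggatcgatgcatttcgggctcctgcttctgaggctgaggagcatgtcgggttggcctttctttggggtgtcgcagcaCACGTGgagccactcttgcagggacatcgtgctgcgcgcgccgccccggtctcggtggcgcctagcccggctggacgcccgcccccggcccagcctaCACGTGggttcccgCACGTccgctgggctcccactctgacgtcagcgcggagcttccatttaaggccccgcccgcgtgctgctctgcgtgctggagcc
Pfkl: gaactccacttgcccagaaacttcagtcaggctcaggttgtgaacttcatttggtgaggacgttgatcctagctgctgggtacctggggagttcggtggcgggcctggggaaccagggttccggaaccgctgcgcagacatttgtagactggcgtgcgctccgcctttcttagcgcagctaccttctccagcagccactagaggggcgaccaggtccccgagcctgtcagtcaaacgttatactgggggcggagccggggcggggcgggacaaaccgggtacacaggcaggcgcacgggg
Slc16a1: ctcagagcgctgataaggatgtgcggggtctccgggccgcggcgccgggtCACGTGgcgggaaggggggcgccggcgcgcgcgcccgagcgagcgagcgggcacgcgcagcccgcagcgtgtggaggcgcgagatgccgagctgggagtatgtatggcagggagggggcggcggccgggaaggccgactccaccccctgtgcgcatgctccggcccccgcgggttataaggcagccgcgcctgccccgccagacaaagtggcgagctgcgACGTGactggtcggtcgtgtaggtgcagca
Slc16a3: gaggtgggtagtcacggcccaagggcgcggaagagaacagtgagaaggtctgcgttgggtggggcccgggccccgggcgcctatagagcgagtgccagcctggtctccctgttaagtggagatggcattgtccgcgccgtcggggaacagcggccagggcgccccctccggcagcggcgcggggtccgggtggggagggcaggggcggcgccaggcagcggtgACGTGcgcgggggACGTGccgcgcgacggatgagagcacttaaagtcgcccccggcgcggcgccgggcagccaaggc

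The Ldha window holds 5 matches and that of Slc16a1 3, where CACGTG counts as 2. Their log2 fold changes with the score were 1.32 and -0.25. Slc2a1, with the largest change, holds 1 match, Hk2 and Pgk1 hold 2 each, and Pfkl, at 1.64, holds 0. Of the GCGTG form Ldha and Slc16a1 hold 2 each, Slc2a1 and Pfkl 1 each, and Hk2, Pgk1 and Slc16a3 0. The Slc16a3 window holds 2 matches, and the gene had 15 UMIs in the highest 10% of main non-immune cells. A match is a description of the letters and not a binding site, and the relation of matches to fold changes was not tested.

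Between exercise and sedentary tumours no member passed the test in any class. edgeR called 0 of 15509 genes in whole tumours, 0 of 14319 in main non-immune cells, 0 of 10818 in macrophages and 0 of 1971 in neutrophils, or 0% each. It called 1 of 9282 genes in T cells (0.0108%) and 1 of 4464 in NK cells (0.0224%), neither a member. At an unadjusted p under 0.05 there were 413 genes in whole tumours, 587 in main non-immune cells, 294 in macrophages, 182 in neutrophils, 300 in T cells and 164 in NK cells. DESeq2 called 22 genes in whole tumours, 28 in main non-immune cells, 2 in macrophages, 12 in neutrophils, 1 in T cells and 0 in NK cells at an adjusted p under 0.05. The tested members at an unadjusted p under 0.05 were 3 of 30 in whole tumours, 3 of 30 in main non-immune cells, 2 of 27 in macrophages, 2 of 18 in neutrophils, 2 of 24 in T cells and 2 of 13 in NK cells. The members below are those of each class with the smallest p, and none of their values is a call.

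Fold changes below 0 outnumbered those above 0 among members, by little in neutrophils. The median log2 fold change of members was -0.12 in main non-immune cells, -0.27 in macrophages, -0.17 in T cells, -0.29 in NK cells and -0.04 in neutrophils, where the median of all genes was close to 0. In main non-immune cells 18 of 30 members had a fold change below 0, in macrophages 21 of 27, in T cells 21 of 24, in NK cells 13 of 13 and in neutrophils 10 of 18. In whole tumours 20 of 30 were below 0, with a median of -0.19, which was -0.03 without exercise library 6 and -0.05 without sedentary library 2. The members are neither independent of each other nor a random choice of genes. Single libraries moved these medians by over 1.5 times. In main non-immune cells the median was -0.02 without exercise library 6, -0.04 without sedentary library 2, -0.22 without exercise library 5 and -0.24 without sedentary library 1. In macrophages it was -0.04 without sedentary library 2, -0.16 without exercise library 6, -0.40 without exercise library 5 and -0.43 without sedentary library 1. In T cells it was -0.28 without exercise library 8 and -0.29 without sedentary library 1, and in NK cells -0.18 without sedentary library 3 and -0.45 without sedentary library 1. In neutrophils it changed sign, to 0.01 without exercise library 6 and 0.04 without sedentary library 2, and it was -0.30 without exercise library 5, -0.20 without sedentary library 1, and -0.10 without exercise library 8 and without sedentary library 3. Exercise library 6 was also lowest in the summed hypoxia score genes of main non-immune cells, with 702 CPM, against 1302 and 1169 CPM in exercise libraries 5 and 8 and 1049 to 1659 CPM in sedentary libraries. The part of the score in the members' values was not tested.

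In main non-immune cells Pgk1 had 378, 271 and 325 CPM in exercise libraries 5, 6 and 8, against 394, 544 and 482 CPM in sedentary libraries 1, 2 and 3 (log2 fold change -0.54, SE 0.16, unadjusted p = 0.0104, adjusted p = 0.998). Slc16a1 had 35.7, 32.8 and 39 CPM in exercise libraries 5, 6 and 8, against 26.7, 25.7 and 30.4 CPM in sedentary libraries 1, 2 and 3 (log2 fold change 0.38, SE 0.11, unadjusted p = 0.0109, adjusted p = 0.998). In both genes the groups did not overlap, with exercise lower in Pgk1 and higher in Slc16a1. Without each library in turn the Pgk1 fold change was -0.67 to -0.43 and that of Slc16a1 0.30 to 0.48. Aldoc, with 111 UMIs in all, was the third of 30 tested members whose groups did not overlap, where 8.61% of all tested genes did not, and a share of 3 in 30 is near that background.

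Gapdh had 1575, 1191 and 1364 CPM in exercise libraries 5, 6 and 8, against 1664, 1763 and 1551 CPM in sedentary libraries 1, 2 and 3 (log2 fold change -0.27, SE 0.11, unadjusted p = 0.0428, adjusted p = 0.998). Aldoc had 0.166, 0.139 and 0.166 CPM in exercise libraries 5, 6 and 8, against 0.275, 0.170 and 0.262 CPM in sedentary libraries 1, 2 and 3 (log2 fold change -0.60, SE 0.30, unadjusted p = 0.0841, adjusted p = 0.998). Eno2 had 1.91, 1.87 and 2.57 CPM in exercise libraries 5, 6 and 8, against 2.89, 2.49 and 2.78 CPM in sedentary libraries 1, 2 and 3 (log2 fold change -0.35, SE 0.18, unadjusted p = 0.0852, adjusted p = 0.998). Exercise library 6 was the lowest in the Gapdh and Eno2 values, and the Gapdh and Eno2 groups overlapped. Bpgm, which makes bisphosphoglycerate, had 11, 14.2 and 10.6 CPM in exercise libraries 5, 6 and 8, against 14.9, 16.6 and 12 CPM in sedentary libraries 1, 2 and 3 (log2 fold change -0.27, SE 0.15, unadjusted p = 0.115, adjusted p = 0.998). Aldoa had 539, 353 and 489.8 CPM in exercise libraries 5, 6 and 8, against 482, 642 and 579.8 CPM in sedentary libraries 1, 2 and 3 (log2 fold change -0.30, SE 0.18, unadjusted p = 0.128, adjusted p = 0.998). Pgm2 had 41, 23.4 and 34.4 CPM in exercise libraries 5, 6 and 8, against 34.8, 46.3 and 39.8 CPM in sedentary libraries 1, 2 and 3 (log2 fold change -0.29, SE 0.21, unadjusted p = 0.195, adjusted p = 0.998). In these 3 the groups overlapped, and the other 22 members had unadjusted p-values above those given here.

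In whole tumours, where all kept cells were summed, fewer cells of a type and less RNA per cell cannot be told apart. The marker genes of macrophages summed to 797 to 1972 CPM in exercise libraries and 784 to 1511 CPM in sedentary libraries, and those of neutrophils to 26.2 to 191 CPM in exercise libraries and 85.9 to 359 CPM in sedentary libraries. The 8 members with the smallest p were Pgk1 (unadjusted p = 0.0176), Gapdh (0.0351), Slc16a1 (0.0369), Pgam1 (0.11), Eno2 (0.117), Aldoa (0.142), Pgm2 (0.157) and Bpgm (0.178), all at an adjusted p of 0.999.

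Pgk1 had 398, 275 and 333 CPM in exercise libraries 5, 6 and 8, against 395, 556 and 491 CPM in sedentary libraries 1, 2 and 3. Gapdh had 1622, 1212 and 1402 CPM in exercise libraries 5, 6 and 8, against 1691, 1848 and 1605 CPM in sedentary libraries 1, 2 and 3. Slc16a1 had 31.5, 30.9 and 37 CPM in exercise libraries 5, 6 and 8, against 25.1, 23.2 and 29.1 CPM in sedentary libraries 1, 2 and 3. Slc16a1 was the 1 of 30 members whose groups did not overlap, with exercise higher, where 6.87% of tested genes did not overlap. Pgam1 had 718, 503 and 563 CPM in exercise libraries 5, 6 and 8, against 631, 783 and 708 CPM in sedentary libraries 1, 2 and 3. Eno2 had 1.61, 1.72 and 2.40 CPM in exercise libraries 5, 6 and 8, against 2.74, 2.14 and 2.69 CPM in sedentary libraries 1, 2 and 3. In all but Slc16a1 the groups overlapped. Aldoa had 568, 361 and 507 CPM in exercise libraries 5, 6 and 8, against 490.4, 679 and 603 CPM in sedentary libraries 1, 2 and 3. Pgm2 had 39.6, 23.5 and 34.6 CPM in exercise libraries 5, 6 and 8, against 34.2, 46.3 and 40.5 CPM in sedentary libraries 1, 2 and 3. Bpgm had 10.9, 13.9 and 10.5 CPM in exercise libraries 5, 6 and 8, against 14.4, 15.4 and 11.6 CPM in sedentary libraries 1, 2 and 3. Exercise library 6 had the lowest value of Pgk1, Gapdh, Pgam1, Aldoa and Pgm2.

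In macrophages Gapdh had 1979, 1678 and 1878 CPM in exercise libraries 5, 6 and 8, against 1934, 2667 and 2453 CPM in sedentary libraries 1, 2 and 3 (log2 fold change -0.39, SE 0.16, unadjusted p = 0.0399, adjusted p = 1). Eno3 had 9.48, 6.19 and 7.53 CPM in exercise libraries 5, 6 and 8, against 18.9, 10.8 and 7.82 CPM in sedentary libraries 1, 2 and 3 (log2 fold change -0.69, SE 0.30, unadjusted p = 0.0493, adjusted p = 1). Pfkfb3 had 63.5, 35.8 and 61.9 CPM in exercise libraries 5, 6 and 8, against 59.2, 113 and 70.9 CPM in sedentary libraries 1, 2 and 3 (log2 fold change -0.64, SE 0.29, unadjusted p = 0.0556, adjusted p = 1). The groups overlapped in these genes. Pgam1 had 481, 372 and 422 CPM in exercise libraries 5, 6 and 8, against 424, 627 and 531 CPM in sedentary libraries 1, 2 and 3 (log2 fold change -0.36, SE 0.18, unadjusted p = 0.082, adjusted p = 1). Slc2a1 had 111, 54.6 and 80.7 CPM in exercise libraries 5, 6 and 8, against 74.9, 167 and 117 CPM in sedentary libraries 1, 2 and 3 (log2 fold change -0.59, SE 0.33, unadjusted p = 0.107, adjusted p = 1). Sedentary library 2 was the highest in both. Pfkfb4 had 34, 34.1 and 31.5 CPM in exercise libraries 5, 6 and 8, against 30.8, 27.6 and 25.5 CPM in sedentary libraries 1, 2 and 3 (log2 fold change 0.21, SE 0.12, unadjusted p = 0.114, adjusted p = 1). It was the 1 of 27 tested members whose groups did not overlap, with exercise higher, where 7.02% of tested genes did not overlap. Hk2 had 146, 81.5 and 187 CPM in exercise libraries 5, 6 and 8, against 158, 261 and 159 CPM in sedentary libraries 1, 2 and 3 (log2 fold change -0.53, SE 0.31, unadjusted p = 0.124, adjusted p = 1). Ldha had 725, 605 and 700.5 CPM in exercise libraries 5, 6 and 8, against 616, 933 and 876 CPM in sedentary libraries 1, 2 and 3 (log2 fold change -0.30, SE 0.19, unadjusted p = 0.138, adjusted p = 1). Exercise library 6 was the lowest in Gapdh, Pfkfb3, Pgam1, Slc2a1, Hk2 and Ldha, and its summed hypoxia score genes were lowest in macrophages as well, at 582 CPM, against 995 and 1014 CPM in exercise libraries 8 and 5 and 775 to 1472 CPM in sedentary libraries.

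In neutrophils Slc2a3 had 191, 85 and 223 CPM in exercise libraries 5, 6 and 8, against 613, 414 and 317 CPM in sedentary libraries 1, 2 and 3 (log2 fold change -1.46, SE 0.36, unadjusted p = 0.000601, adjusted p = 0.0833). Every exercise library was below every sedentary library, from 283 UMIs in all. The value of exercise library 6 rests on few counts, as its 25 neutrophils held 23542 UMIs over all genes. The adjusted p passed 0.05 with DESeq2 (0.0488), with no filter on low counts (0.0247) and without sedentary library 3 (0.0405), and it was 0.359 without sedentary library 1 and 0.121 to 0.251 without each of the other 4 libraries. The neutrophil marker genes moved with it, at 61399, 35893 and 54655 CPM in exercise libraries 5, 6 and 8, against 116920, 104950 and 70985 CPM in sedentary libraries 1, 2 and 3, and their part in the Slc2a3 values was not tested. In whole tumours Slc2a3 had 4.72, 1.13 and 1.40 CPM in exercise libraries 5, 6 and 8, against 3.08, 4.22 and 1.19 CPM in sedentary libraries 1, 2 and 3, with overlap.

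Hk1 had 98.2, 127 and 179 CPM in exercise libraries 5, 6 and 8, against 48.4, 56.7 and 35.3 CPM in sedentary libraries 1, 2 and 3 (log2 fold change 1.13, SE 0.45, unadjusted p = 0.0206, adjusted p = 0.369). Slc16a3 had 518, 85 and 491 CPM in exercise libraries 5, 6 and 8, against 602, 663 and 576 CPM in sedentary libraries 1, 2 and 3 (log2 fold change -0.68, SE 0.34, unadjusted p = 0.0601, adjusted p = 0.548). Gpi1, the isomerase after hexokinase, had 218, 169.9 and 223 CPM in exercise libraries 5, 6 and 8, against 247, 301 and 294 CPM in sedentary libraries 1, 2 and 3 (log2 fold change -0.54, SE 0.32, unadjusted p = 0.101, adjusted p = 0.651). In these 3 the groups did not overlap, with exercise higher in Hk1 and lower in Slc16a3 and Gpi1. Pfkl had 126, 127 and 67 CPM in exercise libraries 5, 6 and 8, against 32.3, 78.5 and 70.5 CPM in sedentary libraries 1, 2 and 3 (log2 fold change 0.75, SE 0.45, unadjusted p = 0.112, adjusted p = 0.657). Slc2a1 had 262, 212 and 89.3 CPM in exercise libraries 5, 6 and 8, against 199, 353 and 223 CPM in sedentary libraries 1, 2 and 3 (log2 fold change -0.49, SE 0.37, unadjusted p = 0.2, adjusted p = 0.782). Both overlapped. Pgk1 had 256, 127 and 335 CPM in exercise libraries 5, 6 and 8, against 264, 362 and 259 CPM in sedentary libraries 1, 2 and 3 (log2 fold change -0.37, SE 0.34, unadjusted p = 0.286, adjusted p = 0.829). Pgam1 had 464, 509.7 and 714 CPM in exercise libraries 5, 6 and 8, against 344, 428 and 458 CPM in sedentary libraries 1, 2 and 3 (log2 fold change 0.30, SE 0.29, unadjusted p = 0.324, adjusted p = 0.861), with no overlap and exercise higher. So 5 of 18 tested members had groups that did not overlap, where 16.4% of tested genes did not. Exercise library 6 held 23542 UMIs in its 25 neutrophils, so 1 UMI there is worth 42.5 CPM.

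In T cells Pgk1 had 391, 358 and 407 CPM in exercise libraries 5, 6 and 8, against 382, 476 and 532 CPM in sedentary libraries 1, 2 and 3 (log2 fold change -0.29, SE 0.13, unadjusted p = 0.041, adjusted p = 1). Pfkl had 48.8, 32.5 and 42 CPM in exercise libraries 5, 6 and 8, against 47.1, 57.1 and 66 CPM in sedentary libraries 1, 2 and 3 (log2 fold change -0.42, SE 0.19, unadjusted p = 0.0431, adjusted p = 1). Slc2a1 had 29.4, 23.2 and 42.6 CPM in exercise libraries 5, 6 and 8, against 27.1, 83 and 42.1 CPM in sedentary libraries 1, 2 and 3 (log2 fold change -0.73, SE 0.34, unadjusted p = 0.0513, adjusted p = 1). These overlapped, and sedentary library 2 was far above the others in Slc2a1. Slc16a1 had 16.7, 20.9 and 19.1 CPM in exercise libraries 5, 6 and 8, against 15.1, 11 and 11.2 CPM in sedentary libraries 1, 2 and 3 (log2 fold change 0.49, SE 0.23, unadjusted p = 0.0544, adjusted p = 1). It was the 1 of 24 tested members whose groups did not overlap, with exercise higher, where 9.16% of tested genes did not overlap. Gpi1 had 287, 242 and 300.2 CPM in exercise libraries 5, 6 and 8, against 287, 356 and 329.8 CPM in sedentary libraries 1, 2 and 3 (log2 fold change -0.26, SE 0.13, unadjusted p = 0.0628, adjusted p = 1). Aldoa had 662, 571 and 709.7 CPM in exercise libraries 5, 6 and 8, against 604, 813 and 848 CPM in sedentary libraries 1, 2 and 3 (log2 fold change -0.25, SE 0.14, unadjusted p = 0.0862, adjusted p = 1). Both overlapped. Slc16a3 had 22.3, 20.1 and 29.6 CPM in exercise libraries 5, 6 and 8, against 28.2, 27.8 and 39.3 CPM in sedentary libraries 1, 2 and 3 (log2 fold change -0.37, SE 0.21, unadjusted p = 0.102, adjusted p = 1). Pgm2 had 23.8, 33.3 and 22.9 CPM in exercise libraries 5, 6 and 8, against 32.8, 30.2 and 33.7 CPM in sedentary libraries 1, 2 and 3 (log2 fold change -0.33, SE 0.19, unadjusted p = 0.104, adjusted p = 1). The groups overlapped in both genes.

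In NK cells Gapdh had 695, 741 and 865 CPM in exercise libraries 5, 6 and 8, against 895, 1045 and 1250 CPM in sedentary libraries 1, 2 and 3 (log2 fold change -0.52, SE 0.17, unadjusted p = 0.00602, adjusted p = 0.987). Gpi1 had 234, 166 and 215 CPM in exercise libraries 5, 6 and 8, against 224, 343 and 286 CPM in sedentary libraries 1, 2 and 3 (log2 fold change -0.54, SE 0.19, unadjusted p = 0.00928, adjusted p = 0.987). Ldha had 333, 356 and 438 CPM in exercise libraries 5, 6 and 8, against 382, 548 and 452 CPM in sedentary libraries 1, 2 and 3 (log2 fold change -0.34, SE 0.17, unadjusted p = 0.0639, adjusted p = 0.987). The Gapdh groups did not overlap, with exercise lower. Pfkp had 125, 139 and 160.4 CPM in exercise libraries 5, 6 and 8, against 171, 176 and 169 CPM in sedentary libraries 1, 2 and 3 (log2 fold change -0.32, SE 0.17, unadjusted p = 0.0798, adjusted p = 0.987), with no overlap and exercise lower. So 2 of 13 tested members had groups that did not overlap, where 9.81% of tested genes did not. Aldoa had 384, 408 and 478 CPM in exercise libraries 5, 6 and 8, against 374, 556 and 604 CPM in sedentary libraries 1, 2 and 3 (log2 fold change -0.33, SE 0.19, unadjusted p = 0.0968, adjusted p = 0.987). Eno1 had 410, 399 and 413 CPM in exercise libraries 5, 6 and 8, against 297, 589 and 618 CPM in sedentary libraries 1, 2 and 3 (log2 fold change -0.36, SE 0.21, unadjusted p = 0.109, adjusted p = 0.987). Sedentary library 1 was the lowest in both. Pkm had 336, 451 and 438 CPM in exercise libraries 5, 6 and 8, against 382, 597 and 472 CPM in sedentary libraries 1, 2 and 3 (log2 fold change -0.29, SE 0.18, unadjusted p = 0.13, adjusted p = 0.987). Tpi1 had 285, 203 and 252 CPM in exercise libraries 5, 6 and 8, against 219.7, 356 and 289 CPM in sedentary libraries 1, 2 and 3 (log2 fold change -0.29, SE 0.19, unadjusted p = 0.135, adjusted p = 0.987). These overlapped.

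**Figure D4:**
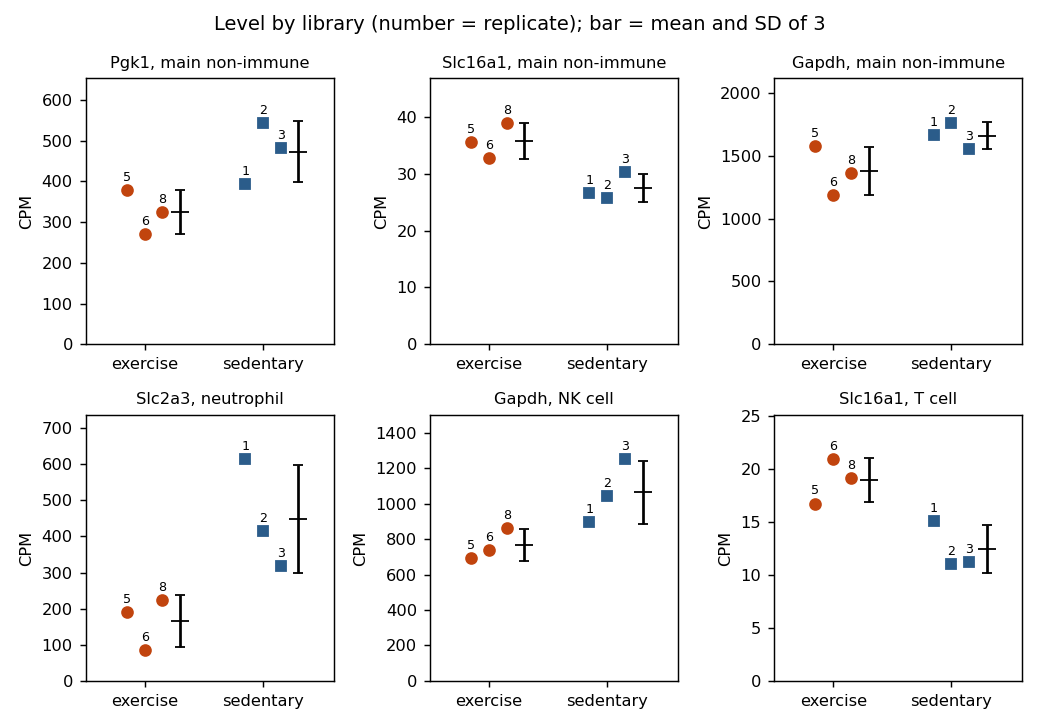
CPM by library (y axes, linear from 0) of Pgk1, Slc16a1 and Gapdh in main non-immune cells, Slc2a3 in neutrophils, Gapdh in NK cells and Slc16a1 in T cells, exercise libraries (circles) left of sedentary libraries (squares), with the replicate number at each point and the mean and SD of 3 beside it. The groups overlap in Gapdh of main non-immune cells and not in the other panels, which were chosen for their small p, and no panel shows a member that passed edgeR's test.

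Slc16a1 had exercise above sedentary with no overlap in whole tumours, main non-immune cells and T cells. Whole tumours include the other classes, so these are not separate observations, and in macrophages Slc16a1 had 9.36, 4.27 and 5.6 CPM in exercise libraries 5, 6 and 8, against 6.44, 8.74 and 5.05 CPM in sedentary libraries 1, 2 and 3, with overlap. In main non-immune cells it averaged 35.8 ± 3.13 CPM in exercise libraries, against 27.6 ± 2.47 CPM in sedentary libraries (SD, n = 3 each). Pgk1 averaged 325 ± 53.5 CPM in exercise libraries, against 473 ± 75.8 CPM in sedentary libraries (SD, n = 3 each).

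**Figure D5:**
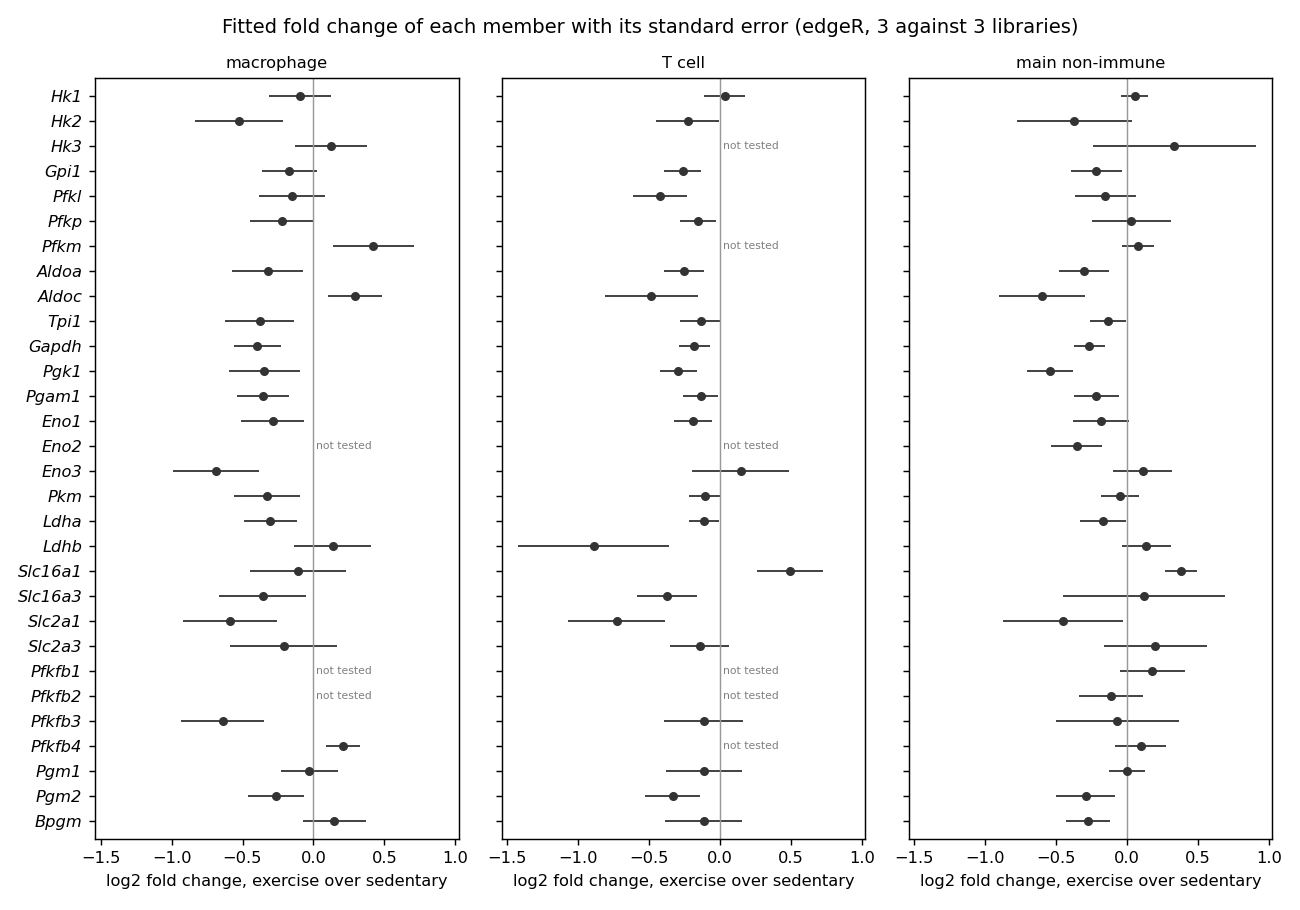
Fitted log2 fold change, exercise over sedentary (x axes), of each member (y axis) in macrophages, T cells and main non-immune cells, with its standard error as a bar. Most points lie left of 0, and no member was called. Members too low for the fit are marked as not tested.

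The isozyme shares showed no group difference that the design could call. Of 72 shares over whole tumours and 5 classes, 5 had groups that did not overlap, each at the smallest exact two-sided permutation p that 3 against 3 libraries allow, 0.1, and at an adjusted p of 0.854. They were Pgm2 in whole tumours (71.8% in exercise and 76.3% in sedentary libraries), Pgm2 in main non-immune cells (72.1% in exercise and 76.5% in sedentary), Pfkfb1 in macrophages (1.32% in exercise and 0.345% in sedentary), Ldhb in dendritic cells (2.48% in exercise and 9.74% in sedentary) and Eno2 in T cells (0.0956% in exercise and 0.182% in sedentary). The shares of Pfkfb1 and Eno2 rest on few UMIs. Of macrophages with at least 2000 UMIs, the highest 10% of hypoxia score held 1 Pfkfb1 UMI and the other cells 26. Dendritic cells numbered 19 in sedentary library 2.

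Of 46 related genes, edgeR tested 32 in whole tumours, 31 in main non-immune cells, 29 in macrophages, 25 in T cells, 15 in NK cells and 9 in neutrophils, and called 0 of them between groups, as did DESeq2. At an unadjusted p under 0.05 were 1 in whole tumours, 2 in main non-immune cells, 1 in T cells, 1 in neutrophils and 0 in macrophages and NK cells. The smallest unadjusted p-values in main non-immune cells were those of Pdk3 (log2 fold change -0.25, SE 0.09, unadjusted p = 0.0247, adjusted p = 0.998) and G6pdx (log2 fold change 0.28, SE 0.11, unadjusted p = 0.0421, adjusted p = 0.998). In macrophages they were those of Eno1b (log2 fold change -0.53, SE 0.26, unadjusted p = 0.0697, adjusted p = 1) and Rpia (log2 fold change -0.28, SE 0.15, unadjusted p = 0.0961, adjusted p = 1). In T cells they were those of Tkt (log2 fold change 0.27, SE 0.13, unadjusted p = 0.0483, adjusted p = 1) and Slc2a8 (log2 fold change 0.73, SE 0.36, unadjusted p = 0.0625, adjusted p = 1). In whole tumours they were those of Epas1 (log2 fold change 0.60, SE 0.21, unadjusted p = 0.0275, adjusted p = 0.999) and Pdk3 (log2 fold change -0.21, SE 0.10, unadjusted p = 0.0652, adjusted p = 0.999). In neutrophils Pgls (log2 fold change 1.02, SE 0.40, unadjusted p = 0.0178, adjusted p = 0.356) and Tkt (log2 fold change 0.77, SE 0.42, unadjusted p = 0.0775, adjusted p = 0.595) led, and in NK cells Ugp2 (log2 fold change -0.46, SE 0.35, unadjusted p = 0.213, adjusted p = 0.987) and Pgls (log2 fold change -0.22, SE 0.18, unadjusted p = 0.248, adjusted p = 0.987).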

How the data were processed

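Whole dissociated tumours were measured by 3' single-cell RNA sequencing in 6 libraries, 3 of exercise and 3 of sedentary mice. The authors deposited 1 matrix of UMI counts per library. Cell Ranger 6.1.2 and the build mm10 are named per the submitters' processing notes, while the matrix headers name software version 3.1.0, and the cause of the difference is not given in the sources used here. Cells entered with 300 or more genes detected, 500 or more UMIs and a mitochondrial share up to 20%, which left 95107988 to 129835515 UMIs per library. No doublet caller was run. Cells were gated on counted markers (at least 2 main non-immune genes, and for leukocytes 2 pan-leukocyte genes with 5 macrophage, 4 neutrophil, 3 T cell, 3 NK cell or 2 dendritic genes and at most 1 main non-immune gene; T cells needed a Cd3 gene and NK cells none), and cells of 2 kinds were left unassigned. At the minimum of a gate lay 4895 main non-immune and macrophage cells.

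Counts were summed per library and class, filtered with filterByExpr, scaled with TMM and tested with edgeR 4.0.16 (limma 3.58.1, R 4.3.3), quasi-likelihood test, with Benjamini-Hochberg adjustment over all genes tested and a threshold of 0.05. The library was a block between classes and between hypoxia ranges. The fit was tested on simulated data. DESeq2 1.42.0, other scaling, filters and gates, and leaving out each library were alternatives. Floors are 3 counts of the total and cover counting error only. Shares were tested with exact permutations in Python 3.11.15 (scipy 1.17.1, numpy 2.4.6, pandas 2.3.3; figures with matplotlib 3.10.9). The text gives, per comparison, members that passed, or the 8 with the smallest p where none or more than 8 did, and the others by range. Members and lists were chosen with earlier results of these data known.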

Additional observations from a re-analysis of the deposited data

How the results depend on the processing

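Between exercise and sedentary libraries, edgeR's count of called genes (0 in whole tumours, main non-immune cells, macrophages and neutrophils, 1 in T cells and 1 in NK cells) became 22 in whole tumours, 28 in main non-immune cells, 2 in macrophages, 12 in neutrophils and 0 in NK cells with DESeq2. With no filter on low counts it became 2 in main non-immune cells, 3 in macrophages, 19 in neutrophils, 49 in T cells and 15 in NK cells, and with 1 more marker per gate 0 in T cells and 0 in NK cells. The count of members called became 1 in neutrophils, Slc2a3, with DESeq2 and with no filter. Leaving out each library in turn gave 0 to 1 genes in main non-immune cells, 0 to 13 genes and 0 to 1 members in neutrophils, 0 to 3 genes in T cells and 0 to 2 genes in NK cells. Between neutrophils and main non-immune cells it gave 4238 to 6204 genes and 11 to 19 members, lowest without exercise library 5, and the number of shares whose groups did not overlap was 5 to 31, highest without sedentary library 1. The cause of these changes was not tested. Groups of fewer libraries separate more easily, and the part of this in the counts was not tested either. Of the named members' values under the alternatives, 994 kept direction and call between classes and 54 lost the call, 555 kept both between exercise and sedentary libraries and 3 gained a call, and 256 kept both with the hypoxia score and 10 lost the call. None of these changed direction. The named members were those called, those with the smallest p or those whose groups did not overlap, a choice that favours a kept direction. The share differences of Eno3 in macrophages and Ldhb in T cells, neither called, changed sign, to -0.126 percentage points with 1 more marker per gate and -0.229 without sedentary library 1 for Eno3, and to 0.0398 without exercise library 8 for Ldhb.

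No paired analysis was possible because the exercise libraries are numbered 5, 6 and 8 and the sedentary libraries 1, 2 and 3, so no number is shared. The gate with 1 more marker was not run for neutrophils, where it left under 20 cells in a library, and does not apply to whole tumours. Among the classes tested with edgeR, neutrophils and NK cells have the lowest depth, with 751803 and 2065546 UMIs in all.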

Other observations

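Within the macrophage class, cells with no C1q gene and at least 2 of Ly6c2, Chil3 and Plac8 counted (monocyte-leaning) were set beside cells with all 3 C1q genes and none of these (C1q part), as a description over 6 libraries (SD) with no test. Pfkp averaged 229 ± 55.2 CPM in the monocyte-leaning part and 112 ± 29.4 CPM in the C1q part. Slc16a3 averaged 144 ± 42.2 CPM in the monocyte-leaning part and 77.2 ± 28 CPM in the C1q part. Slc2a1 averaged 148 ± 36.1 CPM in the monocyte-leaning part and 86.5 ± 35.1 CPM in the C1q part. Hk1 averaged 71.2 ± 16.8 CPM in the monocyte-leaning part and 37.6 ± 5.96 CPM in the C1q part, and Eno1 774 ± 133 CPM in the monocyte-leaning part and 544 ± 128 CPM in the C1q part. Each of these was higher in the monocyte-leaning part in 6 of 6 libraries. Aldoc averaged 14.7 ± 2.60 CPM in the monocyte-leaning part and 25.4 ± 10.3 CPM in the C1q part, higher in 1 of 6. Gapdh, at 2004 ± 312 CPM in the monocyte-leaning part and 2012 ± 400.1 CPM in the C1q part, and Ldha, at 715 ± 117 CPM in the monocyte-leaning part and 739 ± 152 CPM in the C1q part, were higher in 2 of 6.

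Dendritic cells, left out of edgeR's tests because of 19 cells in sedentary library 2, are given by their values beside those of macrophages, and the ranges of Eno3, Ldhb and Pfkfb3 are wide. Eno3 ranged over 7.07 to 74.1 CPM (median 52.8) in dendritic cells and 6.19 to 18.9 CPM (median 8.65) in macrophages. Ldhb ranged over 10.6 to 51.3 CPM (median 29.2) in dendritic cells and 6.75 to 12.5 CPM (median 9.16) in macrophages. Slc2a1 ranged over 10.8 to 32.7 CPM (median 21.5) in dendritic cells and 54.6 to 167 CPM (median 95.9) in macrophages, and Slc16a3 over 4.67 to 54.2 CPM (median 14.2) in dendritic cells and 65.4 to 156 CPM (median 90) in macrophages. Pfkfb3 ranged over 10.8 to 56.3 CPM (median 36.2) in dendritic cells.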
